A study of Mus musculus with 11 samples.

Results

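The 9 genes described here are the transcription factors Neurod1, Lhx2, Dlx1, Dlx2, Pax6, Sox4, Sox11 and Meis2 and the calcium-binding protein gene Calb2 (calretinin), taken by name from the 32285 genes of the mouse count tables. They were followed in neuroblasts and neurons, defined as cells with a UMI (unique molecular identifier, 1 counted RNA molecule) of at least 3 of the 6 genes Dcx, Stmn2, Tubb3, Gad1, Gad2 and Snap25, and then in the other cell types. Of 132437 cells with more than 500 genes, more than 1000 UMIs and less than 25% mitochondrial UMIs, 2360 met this definition and are called gated cells. The cells were thus selected on measured values of the 6 gate genes, so that their values, and any difference between gated and other cells, are given as a description without a test.

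The libraries were made with a 10x 3' kit from the right brain of 11 mice, 1 library for each mouse. The sham + WT group (n = 3) and the MCAO/R + WT group (n = 2) were male C57BL/6 mice of 8 to 10 weeks, and the sham + Lrg1-/- group (n = 3) and the MCAO/R + Lrg1-/- group (n = 3) were conventional knockout mice from another source, backcrossed to C57BL/6N for 4 generations and aged 3 months, so that genotype cannot be told apart from age, substrain or source. The methods do not state the sex of the Lrg1-/- mice. MCAO/R is middle cerebral artery occlusion for 1 h followed by reperfusion, and sham mice had the same operation without the filament entering the artery; the reperfusion time of the sequenced mice is not given in the labels. A conventional knockout lacks the gene in every cell type and throughout life, so that it is not a model of Lrg1 loss in neurons alone.

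Neurogenic transcription factors work in relay. In the ventricular-subventricular zone of the adult forebrain, Pax6 and Sox2 mark stem and progenitor cells, the paired homeobox genes Dlx1 and Dlx2 drive the GABAergic fate of neuroblasts bound for the olfactory bulb, and Sox4 and Sox11 switch on neuronal genes as these cells differentiate. Neurod1 acts late in glutamatergic lineages, such as that of the dentate gyrus, Lhx2 patterns the pallium and is also kept by astrocytes, Meis2 is a TALE homeobox partner of Pax6 and Dlx2 in olfactory bulb precursors, and calretinin marks both a class of bulb interneurons and young granule cells of the dentate gyrus.

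The targeted gene was checked first: Lrg1 had 0 UMIs in 5 of the 6 Lrg1-/- libraries and 1 in the other, against 192, 658 and 276 in the sham + WT libraries and 17799 and 16183 in the MCAO/R + WT libraries. Total UMIs per library ranged from 37159497 to 171813031 and median UMIs per cell from 3190 to 11504. At most 1.15% of a library's cell barcodes recurred in another library, over 55 pairs of libraries.

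The gated cells were led, among genes not used for the gate, by Nrxn3, Dlx6os1, Adarb2, Lrrc7, Gm38505, Myt1l and Sp9, of which Dlx6os1 and Sp9 are known from GABAergic lineages. They numbered 353, 171 and 192 in the sham + WT libraries, 135 and 475 in MCAO/R + WT, 157, 41 and 25 in sham + Lrg1-/- and 90, 187 and 534 in MCAO/R + Lrg1-/-. The gated share of all cells was 1.74 to 2.56% in sham + WT, 1.36 and 3.81% in MCAO/R + WT, 0.723 to 1.66% in sham + Lrg1-/- and 1.04 to 1.56% in MCAO/R + Lrg1-/-. Just inside the gate, 14 to 235 cells per library held exactly 3 of the gate genes, and just outside it 132 to 1705 held exactly 2.

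The gated cells of the 2 genotypes were not alike in composition, which touches every genotype comparison of the 9 genes. The summed level of the 6 gate genes in CPM (counts scaled to the same total in every library) was 2319 to 2807 in the WT libraries and 512 to 2172 in the Lrg1-/- libraries, and a Dcx UMI was found in 82.4 to 93.6% against 52.0 to 80.3% of gated cells. Haemoglobin made up 0.00146 to 0.00515% of gated UMIs in WT and 0.717 to 10.1% in Lrg1-/- libraries, and the choroid plexus gene Ttr 0.00816 to 0.601% against 0.655 to 7.35%. In the gated cells the summed CPM of 6 T-cell markers was 0.606 to 2.87 in WT and 3.4 to 315 in Lrg1-/- libraries, and that of 6 choroid plexus markers 4.48 to 78 against 98.5 to 1484. In sham mice 6 endothelial markers summed to 748 to 1638 CPM in WT and 2107 to 5274 in Lrg1-/- libraries, the latter above the gate genes of the same group (512 to 1591), and 6 mural cell markers to 104 to 329 against 956 to 2524. After MCAO/R the endothelial sums were 1355 and 1845 in WT and 802 to 2314 in Lrg1-/- libraries, and the mural ones 222 and 310.3 against 156 to 731. Microglia markers summed to 263 to 339 CPM in sham + WT and 96.7 and 97.7 in MCAO/R + WT, against 440 to 843 and 236 to 441 in the Lrg1-/- groups. Astrocyte markers went the other way, with 389 to 575 in WT and 135 to 263 in Lrg1-/- libraries. Between 55.4 and 88.0% of the gated cells of a library also held at least 3 markers of another class. Outside the gate, erythroid cells numbered 0 or 1 in each WT library and 36 to 1340 in each Lrg1-/- library. Choroid plexus epithelial cells made up 0.136 to 1.44% of all cells in WT and 2.51 to 19.6% in Lrg1-/- libraries. The part of these differences in the results below was not tested, and fewer cells of a type and less RNA per cell cannot be told apart in summed counts.

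Neurod1 was the member with the largest genotype difference. Neurod1, a basic helix-loop-helix factor of late glutamatergic differentiation (mm10 chromosome 2, 79452521 to 79456751, minus strand), had 27.3, 49.3 and 38.5 CPM in the gated cells of the sham + WT libraries and 62.2 and 21.5 in MCAO/R + WT, where CPM of gated cells is scaled by TMM (trimmed mean of M values). It had 4.02, 0 and 0 CPM in sham + Lrg1-/- and 0.704, 0 and 1.0 in MCAO/R + Lrg1-/-. All 6 Lrg1-/- libraries lay below all 5 WT libraries. In UMIs these were 145, 183, 154, 199 and 216 in WT against 6, 0, 0, 1, 0 and 4 in Lrg1-/- libraries, and a count of 0 allowed up to 5.19, 7.01 and 1.37 CPM in the 3 libraries concerned, for counting error only.

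A gene was called changed where its adjusted p was under 0.05 and its natural-log fold change exceeded 0.25 in size, in edgeR's quasi-likelihood test with Benjamini-Hochberg adjustment over 14404 genes. Between MCAO/R + Lrg1-/- and MCAO/R + WT, 276 genes were called (1.92%), 220 higher (1.53%) and 56 lower (0.389%). Of the 9 members 2 were called, both lower: Neurod1 fell by 5.92 on the log2 scale (SE 0.75, adjusted p = 0.0182 by edgeR), 60.6-fold lower, and Lhx2 fell by 2.59 (SE 0.55, adjusted p = 0.0445), 6.01-fold lower. The 276 genes became 2 without MCAO/R + WT 2 (0.0134%), 9 without MCAO/R + WT 1 (0.0594%) and between 32 and 949 (6.54%, without sham + Lrg1-/- 5) when each other library was left out. The Neurod1 call held without each of the 11 libraries in turn, with values from -7.01 without MCAO/R + Lrg1-/- 5 to -5.0 without MCAO/R + WT 1, but the value without cells that held markers of another class was -3.42 (adjusted p = 0.0792). It was also lost with only the compared groups in the fit (-5.95, adjusted p = 0.0762) and with a replicate block (-5.97, adjusted p = 0.0903). A fit needed at least 20 gated cells per library. Without cells that held markers of another class, sham + Lrg1-/- 2 and 5 and MCAO/R + Lrg1-/- 1 kept 15, 3 and 16 cells and were left out. In that setting the Lrg1-/- side thus rests on sham + Lrg1-/- 1 alone after sham, and on MCAO/R + Lrg1-/- 2 and 5 after MCAO/R.

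Between sham + Lrg1-/- and sham + WT, 1147 genes were called (7.96%), 800 of them higher (5.55%) and 347 lower (2.41%), and the members called were Neurod1, Lhx2, Pax6 and Sox11, all lower. Without any 1 of the 3 sham + WT libraries the 1147 genes became 5, 1 and 6 in turn, and they became 68 and 125 without sham + Lrg1-/- 2 and 5, 664 and 644 without MCAO/R + WT 1 and 2, 2593 without MCAO/R + Lrg1-/- 1 and 2730 (18.8%) without sham + Lrg1-/- 1. Neurod1 fell by 4.06 there (SE 0.74, adjusted p = 0.0242 by edgeR). This call was lost, with adjusted p of 0.0564 to 0.0865, without sham + Lrg1-/- 2 or 5 or without any of the 3 sham + WT libraries. Its value ran from -3.67 without sham + Lrg1-/- 2 to -10.06 without sham + Lrg1-/- 1, where the remaining sham + Lrg1-/- libraries are at 0 UMIs and the fitted value is no bound.

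The 250 bases upstream of the RefSeq transcription start were searched for motifs, and the stretch of them outside the annotated gene is shown for 3 members on which the results turn: Neurod1 and Lhx2, called in the gated cells in both genotype comparisons, and Sox4, called in oligodendrocytes. Coordinates are on GRCm38.p6 (mm10), the sequence runs 5′ to 3′ on the gene's strand, and capitals mark matches on either strand of the 8 motifs searched: CAGCTG and CAGATG (E-boxes read by basic helix-loop-helix factors), TAATTA (homeodomain core), ATTGTT (SOX core), TGACAG (TALE core), GGGCGG (GC box), CCAAT and TATAAA.
Neurod1, chr2:79456752-79456886, minus strand: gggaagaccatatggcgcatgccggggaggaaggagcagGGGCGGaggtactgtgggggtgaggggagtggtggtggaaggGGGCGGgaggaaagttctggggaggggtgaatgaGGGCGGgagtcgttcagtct
Lhx2, chr2:38339031-38339280, plus strand: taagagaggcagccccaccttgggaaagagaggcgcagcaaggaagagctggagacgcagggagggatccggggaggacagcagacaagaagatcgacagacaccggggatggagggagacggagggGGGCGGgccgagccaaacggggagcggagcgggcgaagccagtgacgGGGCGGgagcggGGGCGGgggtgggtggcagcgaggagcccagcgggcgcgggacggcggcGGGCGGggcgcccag
Sox4, chr13:28953714-28953949, minus strand: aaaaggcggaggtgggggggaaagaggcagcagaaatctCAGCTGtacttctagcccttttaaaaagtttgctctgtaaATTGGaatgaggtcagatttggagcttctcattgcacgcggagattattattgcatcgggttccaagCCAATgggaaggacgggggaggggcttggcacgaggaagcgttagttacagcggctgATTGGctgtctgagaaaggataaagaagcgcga
The whole Neurod1 and Lhx2 windows each held 4 GC boxes, of which 3 of Neurod1 lie in the stretch shown, a motif found in 32.7% of 32851 mouse promoter windows of this length. The whole Sox4 window held 1 CAGCTG, found in 13% of windows, and 4 CCAAT boxes (written ATTGG where on the other strand), of which 3 are in the stretch shown, a motif found in 33.9%. The other motifs were found in 14.4% of windows (CAGATG), 4.84% (TAATTA), 9.42% (ATTGTT), 15.9% (TGACAG) and 12.4% (TATAAA). None of the E-box, homeodomain, SOX or TALE motifs was in the windows of Neurod1, Lhx2, Dlx1 or Dlx2. RefSeq lists another start of Lhx2, whose window (chr2:38351058-38351307) held none of the 8 motifs. A match describes letters only.

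Lhx2, a LIM-homeobox factor of pallial patterning and of neural progenitors (chromosome 2, 38339281 to 38369733, plus strand), had 114, 125 and 93.4 CPM in gated cells of sham + WT, 103 and 80.7 in MCAO/R + WT, 30.1, 3.46 and 0 in sham + Lrg1-/- and 11.3, 15.5 and 17.7 in MCAO/R + Lrg1-/-. Every WT library held 328 to 809 Lhx2 UMIs and every Lrg1-/- library 0 to 71, without overlap, and the count of 0 allowed up to 7.01 CPM. The MCAO/R call was lost in 9 of the 11 fits that left out 1 library, with adjusted p of 0.0525 to 0.247 by edgeR, and was kept without sham + Lrg1-/- 1 or 5. It was kept without cells that held markers of another class (-2.38, adjusted p = 0.00951) and lost without the cells of highest doublet score (-2.58, adjusted p = 0.109). In sham mice Lhx2 fell by 2.85 (SE 0.57, adjusted p = 0.0251), a call lost without sham + Lrg1-/- 2 or any sham + WT library. Its value ran from -5.72 without sham + Lrg1-/- 1 to -2.47 without sham + Lrg1-/- 5. Without cells holding markers of another class the value was -1.28, with sham + Lrg1-/- 1 as the only sham + Lrg1-/- library left.

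Calb2, the calretinin gene, was low and uneven even among WT mice. It had 36.2, 48.5 and 8.49 CPM in sham + WT, 114 and 22.9 in MCAO/R + WT, 4.69, 0 and 7.01 in sham + Lrg1-/- and 9.86, 1.37 and 6.25 in MCAO/R + Lrg1-/-. The lowest WT library, sham + WT 3, and the highest Lrg1-/- library, MCAO/R + Lrg1-/- 1, overlapped across operations, but within each operation all Lrg1-/- libraries were lower. The differences were -3.58 after MCAO/R (SE 0.85, adjusted p = 0.0551 by edgeR) and -2.97 after sham (SE 1.04, adjusted p = 0.085), and neither was called. The MCAO/R value ran from -4.34 without MCAO/R + WT 2 to -2.04 without MCAO/R + WT 1. Without cells that held markers of another class the MCAO/R difference was -3.61 and was called (adjusted p = 0.0206).

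Dlx1 and Dlx2, neighbours on chromosome 2 that face each other across 9426 bp and specify GABAergic interneurons, differed less. Dlx1 had 203, 162 and 217 CPM in sham + WT, 189 and 240 in MCAO/R + WT, 158, 118 and 49.0 in sham + Lrg1-/- and 67.6, 146 and 125 in MCAO/R + Lrg1-/-. The Dlx2 levels were 174, 118 and 169 CPM, 137 and 211, 115, 74.4 and 51.4, and 50.003, 122 and 119 in the same order. Lrg1-/- libraries were lower than WT libraries of the same operation for both genes, by a narrow margin for Dlx1 in sham mice (158 against 162) and for Dlx2 (115 against 118). The genotype differences were -0.92 (SE 0.40, adjusted p = 0.207 by edgeR) for Dlx1 and -0.84 (SE 0.39, adjusted p = 0.239) for Dlx2 after MCAO/R, and -0.80 and -0.89 after sham, none of them called. In sham mice both differences turned in sign without cells that held markers of another class, at 0.16 and 0.025. There sham + Lrg1-/- 1, the highest of its group for both genes, was the only sham + Lrg1-/- library left. The Dlx1 gene overlaps the antisense gene Dlx1as, Neurod1 overlaps the antisense gene Gm26755, and Lhx2, Pax6 and Sox4 also lie over antisense genes, so that UMIs of the overlapping parts are uncertain where strand was not used in counting. Neurod1 also overlaps Cerkl on the same strand, where strand does not separate them.

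Pax6, a paired-box factor of radial glia and of a subset of bulb neuroblasts (chromosome 2, 105668900 to 105697364), had 59.8, 66.3 and 88.9 CPM in sham + WT and 55.7 and 57.2 in MCAO/R + WT. It had 37.5, 8.66 and 14 CPM in sham + Lrg1-/- and 24.6, 33.7 and 23.5 in MCAO/R + Lrg1-/-, all below the WT libraries. The sham difference was called (-1.65, SE 0.39, adjusted p = 0.0328 by edgeR) and the MCAO/R difference was not (-1.05, SE 0.38, adjusted p = 0.145). The sham call was lost without sham + Lrg1-/- 2 or 5 or any sham + WT library (adjusted p 0.0773 to 0.101), and the value was -2.63 without sham + Lrg1-/- 1 and -1.32 without sham + Lrg1-/- 2. Without cells holding markers of another class the Pax6 values were -0.94 in sham and 0.25 after MCAO/R, with the second turned in sign and not called. The sham value there rests on sham + Lrg1-/- 1 as the only sham + Lrg1-/- library.

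Sox4 and Sox11, SoxC factors that act at the onset of neuronal differentiation, were the members detected in the largest shares of gated WT cells (93.4 and 91.5%, at unequal depth). Sox4 had 1043, 1051 and 1022 CPM in sham + WT, 836 and 1072 in MCAO/R + WT, 488, 396 and 91.1 in sham + Lrg1-/- and 258, 602 and 576 in MCAO/R + Lrg1-/-. Sox11 had 1395, 1520 and 1459 CPM in sham + WT, 1194 and 1206 in MCAO/R + WT, 802, 474 and 220 in sham + Lrg1-/- and 427, 872 and 855 in MCAO/R + Lrg1-/-. For both genes all Lrg1-/- libraries lay below all WT libraries. Only Sox11 in sham mice was called (-1.54, SE 0.42, adjusted p = 0.0456 by edgeR). It lost the call in 9 of the 11 fits that left out 1 library (adjusted p 0.05 to 0.119). Its value was -0.44 without cells holding markers of another class, where sham + Lrg1-/- 1 was the only sham + Lrg1-/- library left. The other values were -1.66 (adjusted p = 0.0573) for Sox4 after sham, -0.99 (adjusted p = 0.289) for Sox4 after MCAO/R and -0.74 (adjusted p = 0.346) for Sox11 after MCAO/R.

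Meis2, the TALE homeobox gene, was the member whose groups overlapped in both operations. It had 1166, 1153 and 1725 CPM in sham + WT, 1014 and 1101 in MCAO/R + WT, 1434, 1002 and 472 in sham + Lrg1-/- and 537, 1261 and 1273 in MCAO/R + Lrg1-/-. The differences were -0.05 (SE 0.47, adjusted p = 0.97 by edgeR) after MCAO/R and -0.47 (SE 0.42, adjusted p = 0.458) after sham, and their sign changed with the choice of cells and libraries.

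**Figure D1:**
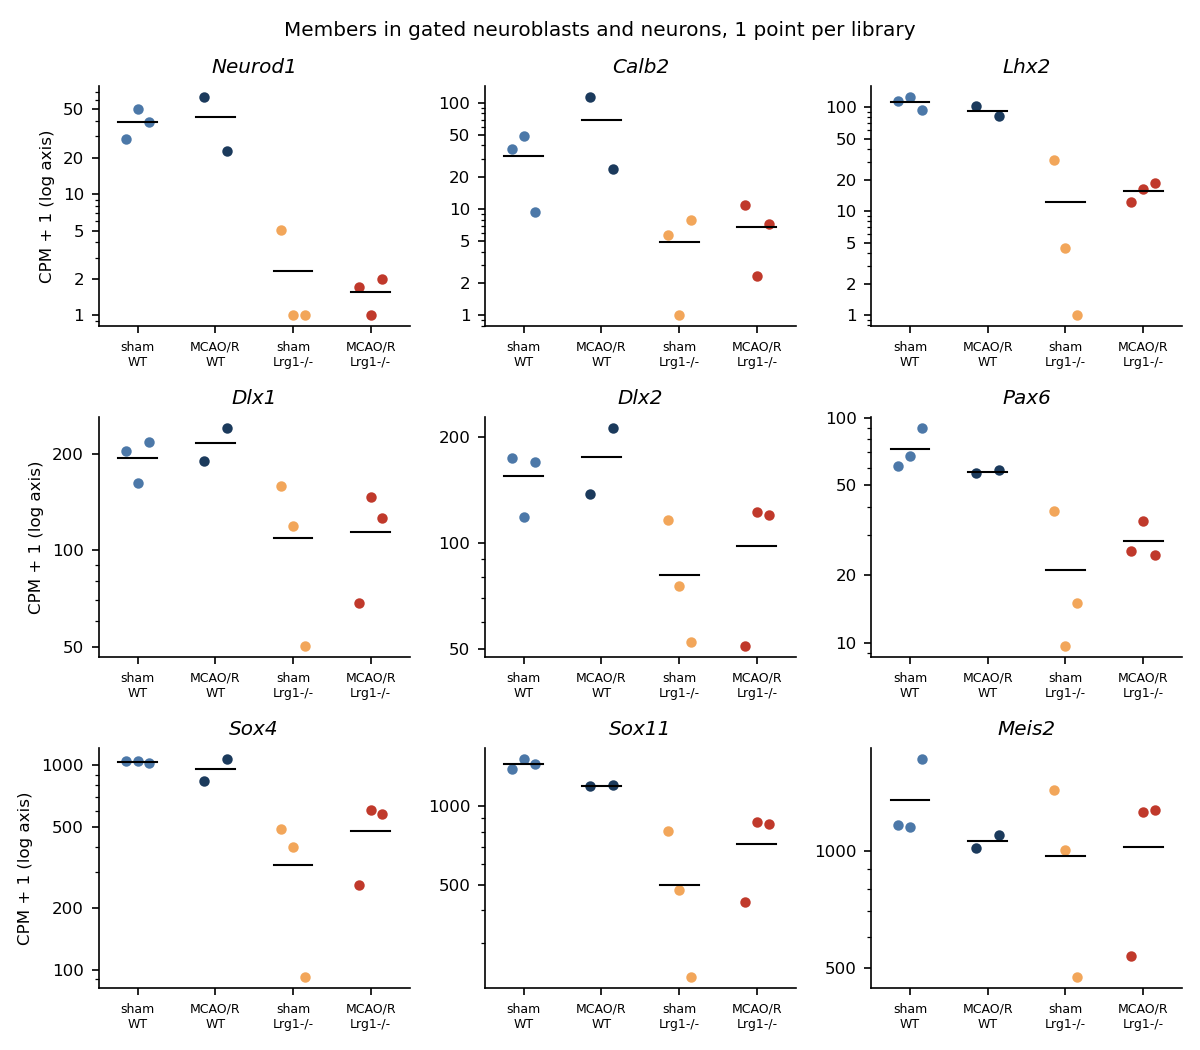
CPM of each of the 9 genes in the gated cells of each of the 11 libraries (points; log axis of CPM plus 1; lines are group means), by group. For Neurod1 the 6 Lrg1-/- libraries sit between 0 and 4.02 CPM and the 5 WT libraries between 21.5 and 62.2, whereas for Meis2 the groups overlap.

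Over all members, 8 of 9 were lower in every Lrg1-/- library than in every WT library of the same operation, Meis2 being the exception in both operations. The same was so of 21.5% of all tested genes after MCAO/R and of 21.6% after sham. The median log2 difference of the 9 members was -0.99 after MCAO/R and -1.65 after sham, against 0.02 and -0.0028 over all tested genes.

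**Figure D2:**
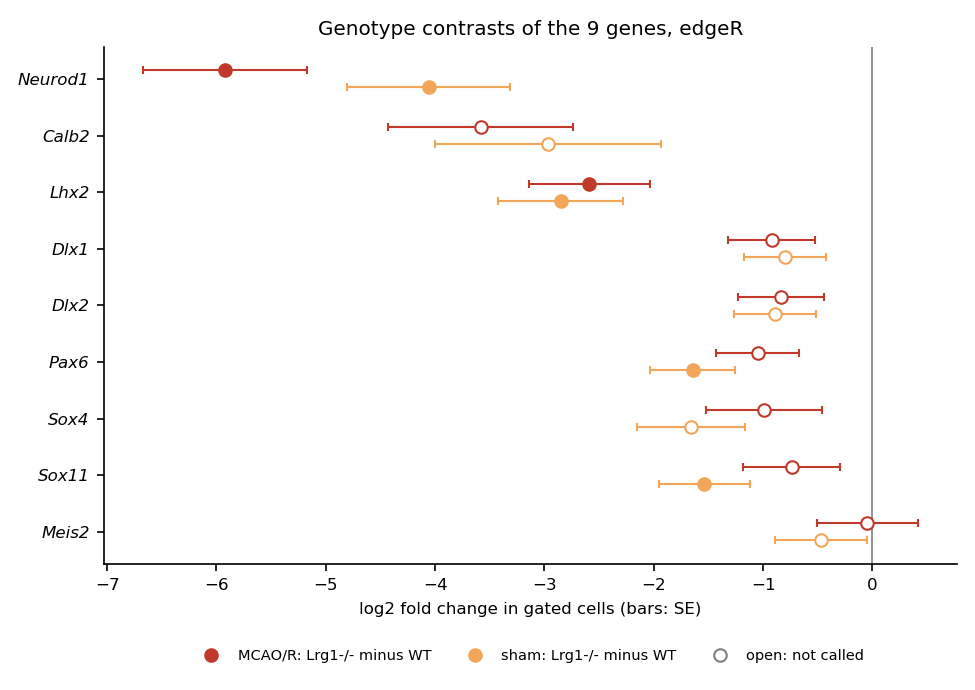
Log2 difference of Lrg1-/- minus WT in gated cells after MCAO/R and after sham for each member (points, with SE as bars; filled points were called). Neurod1 lies at -5.92 and -4.06, Lhx2 at -2.59 and -2.85, and Meis2 near 0.

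Relative to the gate genes, whose measured values chose the cells, the members are given as a description only. Per 1000 UMIs of the 6 gate genes, Neurod1 had 9.41 to 29.5 UMIs in WT and 0 to 2.61 in Lrg1-/- libraries, and Lhx2 35.2 to 53.2 against 0 to 19.6. Sox4 had 393 to 468 against 139 to 317 and Sox11 527 to 649 against 331 to 521. Dlx1 had 69.1 to 86.8 in sham + WT and 75.0 to 103 in sham + Lrg1-/-, and 89.8 to 105 against 63.5 to 69.9 after MCAO/R. Calb2 had 3.26 to 20.7 in sham + WT and 0 to 10.7 in sham + Lrg1-/-, and 10.02 and 53.9 against 0.637 to 10.19 after MCAO/R. In sham mice Dlx2 had 50.5 to 74.3 against 52.0 to 78.6. After MCAO/R Pax6 had 25.01 and 26.4 in MCAO/R + WT against 11.9 to 25.5 in MCAO/R + Lrg1-/-. On this scale the genotypes overlapped in sham mice for Dlx1 and Dlx2, after MCAO/R for Pax6 and in both operations for Calb2. Meis2 lay higher in every Lrg1-/- library than in the WT libraries of the same operation, at 700.1 to 931 against 493 to 663 in sham mice and 555 to 647 against 481 in both MCAO/R + WT libraries.

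The share of gated cells with a UMI was compared after each cell was thinned to 2000 UMIs, because median UMIs per gated cell ranged from 5500 to 17826. Neurod1 was then found in 3.36, 5.88 and 9.47% of cells in the sham + WT libraries, in order of size, and in 3.85 and 9.16% in MCAO/R + WT. It was found in 0, 0 and 0.662% in sham + Lrg1-/- and in 0 of 774 cells in MCAO/R + Lrg1-/-, pooled over 3 mice, which allows a share of cells with a UMI of up to 0.388% at this depth, for counting error only. Microglia, which should lack the gene, had it in at most 0.0784% of cells thinned in the same way. Unthinned, the shares were 8.22, 9.38 and 16.4% in sham + WT, 6.32 and 14.1% in MCAO/R + WT, 0 to 2.55% in sham + Lrg1-/- and 0 to 1.11% (3 of 811 cells) in MCAO/R + Lrg1-/-.

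Lhx2 was found in 9.79 to 14.8% of thinned gated cells in sham + WT, 11.1 and 16.8% in MCAO/R + WT, 0 to 3.31% in sham + Lrg1-/- and 1.11 to 2.29% in MCAO/R + Lrg1-/-, with at most 1.0% in microglia. Sox4 was found in 76.1 to 85.2% of sham + WT cells and 76.3 and 82.9% of MCAO/R + WT cells, against 12 to 52.3% and 30.0 to 58.3% in the Lrg1-/- groups and 7.71 to 18.2% in microglia. Sox11 had 84.4 to 89.9% and 82.0 and 83.2% in the WT groups and 20 to 55.0% and 26.7 to 64.0% in the Lrg1-/- groups. All these shares are of cells gated before thinning. They are a description, with no share over all genes beside them. Calb2 stood at 2.14 to 4.73% and 3.0 and 6.11% in WT groups and 0 to 0.662% and 0.982 to 1.14% in Lrg1-/- groups, with up to 0.314% in microglia. Pax6 had 8.87 to 18.2% and 10.7 and 10.9% in WT groups, against 0 to 5.30% and 1.11 to 6.86%. Dlx1 (24.3 to 38.3% in WT, 12 to 30.9% in Lrg1-/- libraries), Dlx2 (21.4 to 37.9% against 8.0 to 20.6%) and Meis2 (63.3 to 76.5% against 28.0 to 78.9%) completed the set, and of these Dlx1 and Meis2 overlapped between genotypes.

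Within the gated WT cells, given here as a description of 1326 cells, Neurod1 and Calb2 were mostly found in other cells than Dlx1 and Dlx2, while Sox4 and Sox11 were found in nearly all. Of the 124 cells with a Neurod1 UMI (9.35%), 95.2% held a UMI of at least 1 of 10 genes listed as pallial, against 15.1% of all gated WT cells. The 10 genes were Neurog2, Eomes, Tbr1, Neurod2, Neurod6, Emx1, Prox1, Bcl11b, Slc17a6 and Slc17a7. A UMI of 1 of them does not by itself show a glutamatergic cell. Of the cells with Neurod1, 95.2% held Lhx2 (35.0% of all), 96.8% the neuronal nuclear protein gene Rbfox3 (24.4%) and 57.3% Calb2 (7.09%), whereas 2.42% held Dlx1, 3.23% Dlx2 and 4.84% Gad1 or Gad2. Of the 94 cells with Calb2, 75.5% held Neurod1 and 81.9% a pallial gene. Calb2 in these cells was thus found mostly beside Neurod1 and not beside Dlx1 or Dlx2, which 11.7% of the Calb2 cells held.

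The cells with Dlx1 mostly held Gad1 or Gad2, which were among the genes that chose the cells. The 902 gated WT cells with Dlx1 held Dlx2 in 86.9%, Meis2 in 98.1% and Gad1 or Gad2 in 95.2%, the Gad genes being gate genes, and Neurod1 in 0.333%. The vesicular GABA transporter gene Slc32a1, which the gate did not use, was held by 41.7% of the Dlx1 cells and 1.61% of the Neurod1 cells. Lhx2 was found in both kinds of cell: of its 464 cells 62.7% held Dlx1 or Dlx2, 38.4% a pallial gene, 59.5% Pax6 and 49.4% the division genes Mki67 or Top2a. Among 1034 gated Lrg1-/- cells, 7 held Neurod1 (0.677%), of which 5 held a pallial gene, 5 Lhx2 and 4 Calb2. There were 430 Lrg1-/- cells with Dlx1, 63.7% of them with Dlx2 and 95.6% with Gad1 or Gad2, both Gad genes being gate genes.

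**Figure D3:**
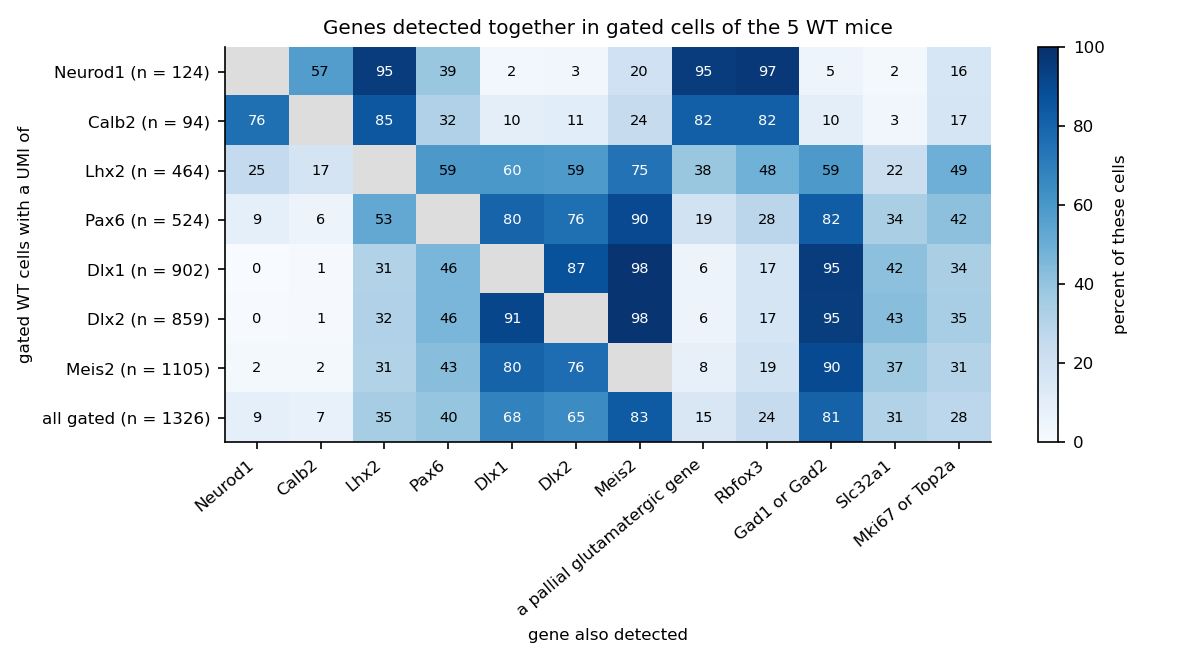
Share of the gated WT cells holding the gene of each row that also held the gene or gene group of each column (percent). The Neurod1 row is high for the pallial genes (95.2%) and for Lhx2 (95.2%) and low for Dlx1 (2.42%), and the Dlx1 row is high for Dlx2 (86.9%) and Meis2 (98.1%).

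These kinds of cell took different shares of the gated cells in the genotypes. Cells with Dlx1 or Dlx2 made up 66.1 to 78.6% of gated cells in sham + WT and 71.9 and 77.3% in MCAO/R + WT, against 44.0 to 58.6% and 35.6 to 60.4% in the Lrg1-/- groups. Cells with a pallial gene and neither Dlx gene made up 9.63 to 19.3% and 7.16 and 14.1% in the WT groups and 4.0 to 5.10% and 1.87 to 5.56% in the Lrg1-/- groups. Cells with neither made up 9.38 to 19.8% and 14.1 and 15.6% in WT, against 36.3 to 52.0% and 36.4 to 58.9%. These shares were taken at unequal depth and rest on detection, so they are descriptions.

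Levels of members within the cells that held Dlx1 or Dlx2 are given as a description, in CPM without TMM scaling. Lhx2 was at 66.7, 50.02 and 39.96 in sham + WT and 56.2 and 54.7 in MCAO/R + WT, and at 29.6, 6.82 and 0 in sham + Lrg1-/- and 12.8, 19.0 and 18.1 in MCAO/R + Lrg1-/-. Pax6 was at 70.2 to 115 in WT and 17.1 to 49.2 in Lrg1-/- libraries, Sox4 at 1075 to 1369 against 192 to 841, and Sox11 at 1530 to 1805 against 486 to 1294. These levels rest on 97 to 367 cells in each WT library, on 92, 21 and 11 in sham + Lrg1-/- and on 32, 113 and 250 in MCAO/R + Lrg1-/-, so that sham + Lrg1-/- 5 lies under the 20 cells asked of other classes. Meis2 was at 1499 to 2285 in WT and 1020 to 1692 in Lrg1-/- libraries. No share of all genes that separate the genotypes in these cells is given, so the ranges do not set these members apart from other genes. In WT cells with a pallial gene and neither Dlx gene, Neurod1 was at 217 to 418 CPM and Lhx2 at 430 to 520, over 19 to 34 cells per library. The Lrg1-/- libraries held 1 to 10 such cells each, too few for a level.

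The operation itself moved no member past the threshold in the gated cells. Between MCAO/R + WT and sham + WT, 14 genes were called (0.0972%) and none was a member, with 619 genes at an unadjusted p under 0.05 in edgeR. The largest member difference there was that of Calb2 at 1.11 (SE 0.73), and the others lay between -0.35 and 0.18. Between MCAO/R + Lrg1-/- and sham + Lrg1-/-, 14 genes were called (0.0972%), again none a member, with 1338 at an unadjusted p under 0.05; Neurod1 was at -1.76 (SE 1.22), Sox4 at 0.54 and Sox11 at 0.52. All MCAO/R + WT libraries were below all sham + WT libraries for Pax6, Sox11 and Meis2, as were 14.4% of all genes. For the interaction of genotype and operation no gene was called, with 645 at an unadjusted p under 0.05, and Neurod1 stood at -1.86 (SE 1.31) and Sox11 at 0.80. DESeq2 and the other alternatives called no member in these 3 comparisons either.

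Genes of the same pathways, in lists fixed for the fit, moved as follows between MCAO/R + Lrg1-/- and MCAO/R + WT. Of the 10 genes listed as pallial, 2 were lower and none higher, with a median of -3.03. Neurod6, a relative of Neurod1, had 8.44 and 3.19 CPM in MCAO/R + WT against 0.704, 0.456 and 0.25, which is 59 against 3 UMIs and a ratio of 11.3 with an exact 95% counting interval of 3.69 to 56.5 (fitted -3.66, SE 0.72, adjusted p = 0.0445 by edgeR). Eomes, a factor of glutamatergic intermediate progenitors, had 16.6 and 15.4 CPM against 0, 1.82 and 3.75 (-2.78, SE 0.61, adjusted p = 0.0454). Of 15 tested olfactory bulb and subpallial factors 1 was lower, Gsx2, a progenitor homeobox gene (7.19 and 18.5 CPM against 1.41, 0.911 and 1.0; -3.59, SE 0.59, adjusted p = 0.0237), with a list median of -0.44.

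Of 9 tested mature neuron genes 1 was lower, Rbfox3, with 123 and 80.0 CPM in MCAO/R + WT against 19.7, 14.6 and 13.5 (-2.69, SE 0.40, adjusted p = 0.0197 by edgeR); the list median was -0.40. None of 12 stem and progenitor genes was called (median -0.82; Ccnd2 at -0.76 and Hmgb2 at -0.85), nor any of 12 immature neuron genes (median -0.62; Stmn1 at -0.58 and Tubb2b at -0.83), nor any of 6 tested interneuron identity genes (median 0.37; Sox6 at -0.84 and Reln at 2.35). Among 9 early response genes that tissue dissociation can raise, Jun (-1.73, adjusted p = 0.0248) and Egr1 (-1.25, adjusted p = 0.0449) were lower and none was higher, with a median of -0.71; their part in the member results was not tested.

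In sham mice, where 2.41% of all genes were called lower against 0.389% after MCAO/R, more of these genes were lower in Lrg1-/- cells, and over all genes only 1 to 6 calls were made without any 1 sham + WT library. They included Gsx2 and Nr2f1 among the bulb and subpallial factors, Eomes, Tbr1 and Neurod6 among the pallial genes, Sox2 and Sox9 among the stem genes, Rbfox3 (-3.32, adjusted p = 0.0106 by edgeR) among the mature genes and 6 of the 12 immature neuron genes (Cd24a, Igfbpl1, Tubb2b, Nnat, Stmn1 and Marcksl1). Stmn1, a tubulin regulator, had 2336 to 2549 CPM in sham + WT and 572 to 1139 in sham + Lrg1-/-. Junb was higher and no interneuron identity gene was called. No gene of any of the lists was called for the operation in either genotype or for the interaction.

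Across the cell types of sham + WT mice (CPM without TMM scaling, mean ± SD, n = 3), 6 of the members were highest in the gated cells without overlap with any other class. This is a description of cells chosen by neuronal genes. No share over all genes stands beside the count, so it does not set the members apart from other genes. Neurod1 had 41.1 ± 11.6 in gated cells and 0.413 in astrocytes, the next class; Dlx1 had 208 ± 31.9 against 1.52 in oligodendrocytes, and Dlx2 165 ± 34.0 against 2.32 in astrocytes, with 6.44 in the 1 library that had enough fibroblasts. Sox4 had 1113 ± 8.40, then microglia and ciliated ependymal cells, which did not differ beyond their spread (115 ± 3.93 and 115 ± 27.0), and Sox11 1561 ± 62.0 against 52.7 ± 24.6 in astrocytes. Meis2 had 1445 ± 360.1, followed without overlap by astrocytes (465 ± 71.9) and ependymal cells (207 ± 45.3). The remaining 3 were shared with glia. Lhx2 was highest in astrocytes (186 ± 14.2), above gated cells (118 ± 16.2) and ependymal cells (36.8 ± 11.6), Pax6 in gated cells (76.8 ± 16.9) overlapped astrocytes (69.4 ± 1.38), and Calb2 (33.2 ± 21.8) overlapped astrocytes (13 ± 5.08).

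**Figure D4:**
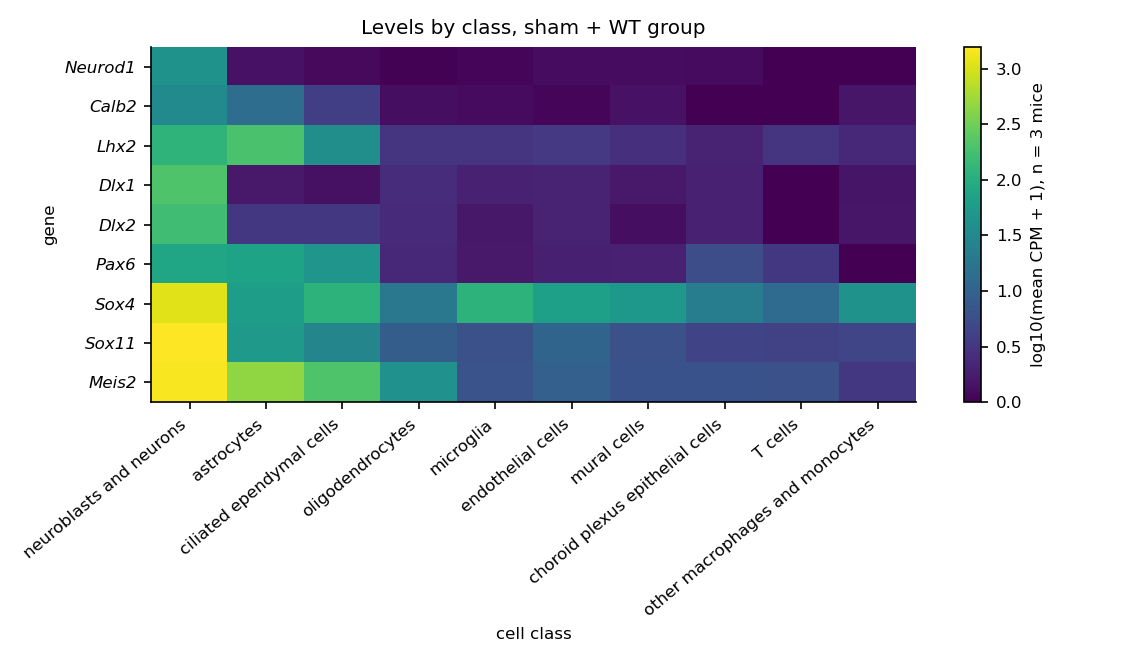
Heat map of the mean CPM of the 9 members (rows) in the gated cells and the other cell classes (columns) that had at least 20 cells in each of the 3 sham + WT libraries, with colour as log10 of mean CPM plus 1, to be compared within a row. Lhx2 is highest in astrocytes (186) and Dlx1 is near 0 outside the gated cells.

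The share of a member's UMIs that came from gated cells differed between the members and the groups. It was 90.1% for Neurod1 in sham + WT and 84.7% in MCAO/R + WT, against 30.0% and 18.5% in the Lrg1-/- groups in the same order. These Neurod1 shares are 482 of 535 and 415 of 490 UMIs in WT. In the Lrg1-/- groups they are only 6 of 20 and 5 of 27 UMIs, pooled over the mice of a group. Lhx2 had 31.9 and 35.2% in the WT groups, where astrocytes held 41.9 and 39.6%. Dlx1 had 87.1 and 89.3% in WT and 47.9 and 52.4% in Lrg1-/- groups, Sox11 84.6 and 84.7% against 52.9 and 55.9%, Calb2 62.9 and 78.4% against 9.90 and 16.3%, and Pax6 41.1 and 45.1% against 16.9 and 19.9%. Sox4 had 35.1 and 31.0% against 16.6 and 20.5%, with 37.3% in microglia of sham + WT, and Meis2 61.8 and 64.4% against 56.3 and 49.1%. The groups also differed in their numbers of gated cells, whose part in these shares was not tested.

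Over the mean levels of 13 cell classes, each taken over those of the 11 libraries that held at least 20 of its cells, the genes most like 8 of the members were listed by Pearson's r among 14313 genes, with no test, since the points share libraries and the groups are mixed in them. Neurod1 was closest to Chodl (0.997), Mir124a-1hg (0.996) and Tac2 (0.996), Dlx1 to Gad2 (0.991), Svop and Srrm3, and Lhx2 to Sox1 (0.982), Pou3f4 and Ncan. Gad2 is a gate gene, so that its high level in the gated class follows from how the cells were chosen. Calb2 was closest to Ube2ql1 (0.992), Sox11 and Gm29260, and Sox11 in turn to Ube2ql1 (0.992), Calb2 (0.990) and Srrm4. Dlx2 was closest to Gm16351 (0.983), Pax6 to Rimklb (0.984) and Sox4 to Plxna3 (0.926).

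In the other cell classes, 8 of which had enough cells for a fit, 2 member values were called between MCAO/R + Lrg1-/- and MCAO/R + WT. In that comparison 30.9% of genes were called in microglia, 29% in other macrophages and monocytes, 0.0936% in neutrophils, 26.6% in endothelial cells, 27.2% in mural cells, 9.26% in astrocytes, 41.3% in oligodendrocytes and 9.18% in ciliated ependymal cells. The first was Lhx2 in astrocytes, where it is normally kept. Its CPM was 199, 195 and 170 in sham + WT, 76.3 and 146 in MCAO/R + WT, 58.2, 69.8 and 28.8 in sham + Lrg1-/- and 39.7, 44.4 and 38.6 in MCAO/R + Lrg1-/-. All Lrg1-/- libraries were below all WT libraries, on 3 to 35 UMIs in each Lrg1-/- library. No share of all astrocyte genes that separate in this way is given, so the separation does not set Lhx2 apart from other genes. The difference was -1.44 after MCAO/R (SE 0.28, adjusted p = 0.00841 by edgeR), 2.72-fold lower, where 9.26% of genes were called, and -1.71 after sham (SE 0.29, adjusted p = 0.00838), 3.27-fold lower, where 2.97% were called.

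In the same astrocytes Sox4 and Sox11 had positive differences after MCAO/R that were not called. Sox11 had 42.9 and 48.7 CPM in MCAO/R + WT and 87.8 to 131 in MCAO/R + Lrg1-/- (1.20, SE 0.38, adjusted p = 0.0619 by edgeR), and was called by DESeq2 and with a replicate block. Sox4 had 66.04 and 83.3 against 80.8 to 268, with overlap (1.47, SE 0.48, adjusted p = 0.0728), and was called with the block and in 1 of the 5 fits that left out 1 MCAO/R library. The gate genes in these astrocytes summed to 36.8 and 39.5 CPM in MCAO/R + WT and 72.5 to 109.9 in MCAO/R + Lrg1-/-. The part of neuronal RNA in the Sox4 and Sox11 differences was not tested.

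The MCAO/R value for Lhx2 in astrocytes was -0.90 and not called (adjusted p = 0.091 by edgeR) without MCAO/R + WT 2, and the sham call was lost without sham + Lrg1-/- 1 (adjusted p = 0.0621). Astrocytes with Lhx2 after thinning made up 17.2 to 28.0% in WT and 0 to 6.15% in Lrg1-/- libraries. The astrocyte class held 218 to 707 cells per WT library and 22 to 157 per Lrg1-/- library, and its 6 markers summed to 14058 to 15869 CPM against 4674 to 8676; the part of this in the Lhx2 difference was not tested. The operation gave -0.75 in WT (adjusted p = 0.0895) and -0.48 in Lrg1-/- mice (adjusted p = 0.386), with an interaction of 0.27 (adjusted p = 0.867), none of them called; without MCAO/R + WT 2 the WT value was -1.31 and called (adjusted p = 0.00457).

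The second was Sox4 in oligodendrocytes, which rose after MCAO/R in WT mice. Its CPM was 25.9, 14.3 and 12.9 in sham + WT and 149 and 332 in MCAO/R + WT, and 16.9, 12 and 14.9 in sham + Lrg1-/- and 24.9, 29.4 and 36.1 in MCAO/R + Lrg1-/-. The MCAO/R + WT libraries were above all the others. The operation in WT gave 3.76 (SE 0.35, adjusted p = 3.3e-05 by edgeR), 13.5-fold higher, with 16.3% of genes called, and 3.03 to 4.20 without each library in turn. In Lrg1-/- mice it gave 1.03 (SE 0.36, adjusted p = 0.0718), not called, with adjusted p of 0.0262 to 0.198 when each library was left out.

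Between MCAO/R + Lrg1-/- and MCAO/R + WT, Sox4 in oligodendrocytes fell by 2.98 (SE 0.34, adjusted p = 0.000162 by edgeR), 7.90-fold lower, a call kept in all 5 fits that left out 1 library of these groups, in a comparison where 41.3% of genes were called. The sham genotypes did not differ at the threshold (-0.25, adjusted p = 0.663). The interaction was called (-2.73, SE 0.50, adjusted p = 0.021, 1.85% of genes) and lost its call without some of the libraries. At equal depth per cell, 15.9 and 28.0% of oligodendrocytes held Sox4 in MCAO/R + WT, 4.99, 4.06 and 6.89% in MCAO/R + Lrg1-/-, 5.87, 1.5 and 1.24% in sham + WT and 3.79, 1.64 and 2.84% in sham + Lrg1-/-.

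Other genes in these oligodendrocytes are given beside the Sox4 result, in CPM without TMM scaling. The neuronal and neuroblast genes Dcx (0.522 to 6.28), Stmn2 (0.914 to 16.6), Gad1 (0 to 3.93) and Snap25 (0.603 to 4.89) were low in all libraries, and Sox11 was at 2.16 to 24.8. Dcx, Stmn2, Gad1, Snap25 and Tubb3 are gate genes. Cells with at least 3 of the 6 gate genes were outside this class, so low levels follow in part from the selection. Tubb3 moved with Sox4, at 507 and 404 in MCAO/R + WT, 176, 236 and 195 in MCAO/R + Lrg1-/- and 62.1 to 102 in sham libraries. The precursor gene Pdgfra was at 0.340 to 4.08. The myelin gene Mog was at 1934 to 1971 in sham + WT, 1263 and 1265 in MCAO/R + WT, 907 to 1251 in sham + Lrg1-/- and 505 to 749 in MCAO/R + Lrg1-/-, and median UMIs per oligodendrocyte were 13501 and 15455 in MCAO/R + WT and 3005 to 4434 in MCAO/R + Lrg1-/-. Their part in the Sox4 difference was not tested.

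**Figure D5:**
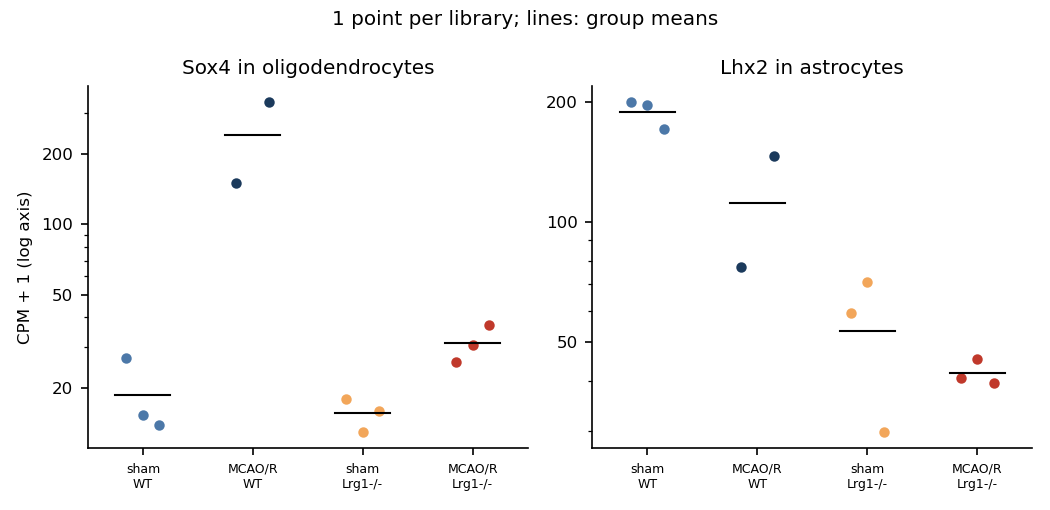
CPM of Sox4 in oligodendrocytes and of Lhx2 in astrocytes in each of the 11 libraries by group (points; log axis of CPM plus 1; lines are group means). Sox4 is at 149 and 332 in the MCAO/R + WT libraries and at most 36.1 in the others, and Lhx2 is at 76.3 to 199 in WT and at most 69.8 in Lrg1-/- libraries.

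Over all comparisons in these classes, the MCAO/R genotype comparison and its calls included, there were 12 calls among 218 tests of a member in a class. These came from 36 fits of a class and comparison, in which 14.7% of all gene tests were called. Reading the comparisons beyond the MCAO/R genotype comparison was decided after values had been seen. Sox4 in microglia was lower in sham + Lrg1-/- than in sham + WT (-0.79, SE 0.12, adjusted p = 0.000413 by edgeR, 35.8% of genes called) and lower after MCAO/R in WT (-1.04, SE 0.14, adjusted p = 0.000198, 20.6% of genes) and in Lrg1-/- mice (-0.54, SE 0.12, adjusted p = 0.00439, 34.9% of genes). In endothelial cells Sox4 was lower in sham + Lrg1-/- than in sham + WT (-0.92, SE 0.13, adjusted p = 0.00139, 26.7% of genes). Sox4 thus moved with the operation in opposite directions in microglia and oligodendrocytes of WT mice, a difference that was not itself tested. Dlx1 (1.73, adjusted p = 0.0358) and Pax6 (1.34, adjusted p = 0.0135) were called higher in microglia of sham + Lrg1-/- mice, and Pax6 lower after MCAO/R in Lrg1-/- mice (-1.69, adjusted p = 0.00631). These levels are those of a class used here as background for members, and the haemoglobin and Ttr shares given above for gated cells also differed between the genotypes; their part here was not tested. Thinned to 2000 UMIs, at most 1.33% of microglia held Dlx1 and 0.471% Pax6 in sham + Lrg1-/-, against 0.333 and 0.133% in sham + WT libraries. Dlx1 was at 0.751 to 6.74 CPM in microglia of sham + Lrg1-/- and 0.624 to 1.32 in sham + WT libraries, which overlapped. Pax6 was at 1.75 to 2.13 CPM in sham + Lrg1-/-, 0.530 to 0.818 in sham + WT and 0.362 to 0.842 in MCAO/R + Lrg1-/- (CPM without TMM scaling).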

How the data were processed

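Per the labels and the methods of the study, 1 single-cell library was made from the right brain of each mouse with a 10x 3' kit; the mouse is the replicate. The authors deposited filtered matrices of UMI counts per gene and cell barcode, not normalized, made with Cell Ranger on mm10. The cell limits above are those of the study, which states fewer cells after doublet removal; here no doublets were removed in the reported values, and leaving out the 6% highest Scrublet scores was an alternative.

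UMI counts were summed per library and class (at least 20 cells) and fitted over all 11 libraries with edgeR 4.0.16 (R 4.3.3) by the quasi-likelihood test with TMM factors and filterByExpr, with p-values adjusted over all tested genes. A cell of another class held at least 3 of its 6 markers and more than of any other class, outside the gate. Python 3.11.15 with scanpy 1.11.5 handled cells. The scripts were tested on simulated data. DESeq2 1.42.0, no filter on low counts, other gates, thinning, leaving out each library, and a replicate block were alternatives.

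The members and gene lists were chosen with earlier results of these data known. The text names the 9 members and, for each list, up to 3 called genes with the largest change after MCAO/R, or the 2 with the highest mean level where none was called; sham genes beyond these, and gene values given beside a result, were named after their values were seen. A few genes that this rule or these lists hold are not reported here. Promoters are from RefSeq (GRCm38.p6) and matched for 8 members. Intervals and limits for counts of 0 (3 counts) cover counting error only.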

Additional observations from a re-analysis of the deposited data

Results flagged for a closer look

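The effect of the operation on Sox4 in oligodendrocytes differed between the genotypes, by a test of the difference itself. The interaction of genotype and operation was -2.73 on the log2 scale (SE 0.50, adjusted p = 0.021 by edgeR over all genes tested in oligodendrocytes), with a rise of 3.76 in WT and of 1.03 in Lrg1-/- mice, the latter not called. It lost its call in 5 of the 11 fits that left out 1 library, with adjusted p of 0.0502 to 0.128: without sham + Lrg1-/- 1 or 2, sham + WT 2 or 3, or MCAO/R + WT 2, where it was -1.93. The interaction in this class was read after values had been seen. Tubb3 and Mog levels and UMIs per oligodendrocyte also differed between these groups, as given above, and their part was not tested. The MCAO/R + WT group has 2 mice, and these stood apart from each other (149 and 332 CPM).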

How the results depend on the processing

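Beside each count of members called stands the share of all tested genes called. Of the 2 members called after MCAO/R (1.92%), the count became 4 with no filter on low counts (6.21%), 3 with DESeq2 (8.87%), 3 with thinned cells (6.75%), 3 with a gate of at least 4 genes (6.77%), 1 without the 6% highest doublet scores (0.0571%), 4 in gated cells with a Dcx UMI (9.4%), 6 without the 3 libraries with under 100 gated cells (11.3%), 0 with only the compared groups in the fit (0.0371%), and 1 to 3 when each library was left out (0.0134 to 6.54%); the Dcx and small-library settings were chosen after seeing the data. Of the 4 called after sham (7.96%), the count became 7 with no filter (10.4%), 6 with DESeq2 (17.9%), 2 with a gate of at least 4 genes, which drops sham + Lrg1-/- 5 (2.36%), and 1 without doublets (1.03%). It was 0 to 5 when each library was left out (0.00718 to 18.8%): 0 without sham + Lrg1-/- 2 or any sham + WT library and 1 without sham + Lrg1-/- 5. No sham count is given without cells holding markers of another class or with the gate asked again after thinning. These settings leave sham + Lrg1-/- 1 as the only sham + Lrg1-/- library. The operation and interaction counts were 0 without each library in turn, and the 2 calls in other classes (0.0936 to 41.3% of genes by class) became 2 to 6 when each MCAO/R library was left out (0.00913 to 42.9%). With a gate of at least 4 genes the mean share of gated cells moved from 2.11 to 1.63% in sham + WT and from 1.33 to 0.745% in MCAO/R + Lrg1-/-.

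Neurod1 after MCAO/R kept its direction throughout and lost its call without cells holding markers of another class and with only the compared groups in the fit (-5.95, adjusted p = 0.0762 by edgeR). Meis2 turned in sign after MCAO/R with a gate of at least 4 genes (0.12), without cells of another class (0.11), with thinned cells (0.081), with the gate asked after thinning (0.13), with Dcx cells (0.10), without the small libraries (0.23), with the block (0.082), and from -0.23 to 0.25 when each library was left out. After sham it turned with a gate of 4 genes (0.23), without cells of another class (0.028), with the gate asked after thinning (0.27), with Dcx cells (0.18) and without the small libraries (0.077). Each of these sham settings left out sham + Lrg1-/- 5, the lowest of its group for Meis2 (472 CPM). Sham + Lrg1-/- 2 was also left out without cells of another class, with the gate asked after thinning and without the small libraries. There the value rests on sham + Lrg1-/- 1 alone, the highest of its group (1434 CPM). Without cells of another class Pax6 after MCAO/R (0.25) and Dlx1 (0.16) and Dlx2 (0.025) after sham also turned, and Sox4 in oligodendrocytes of sham mice went from -0.43 to 0.14 when each library was left out. The causes were not tested.

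Same-numbered mice of different groups did not deviate together (13 pairs, median r -0.021, range -0.277 to 0.161). With so few libraries per group, this cannot settle whether the numbers pair the mice. With a replicate block, 0 members were called in either genotype comparison in gated cells, where 0.0555% and 0% of all genes were called (Neurod1 after MCAO/R -5.97, adjusted p = 0.0903 by edgeR) and 4 in other classes: 3 in astrocytes, where 3.68% of genes were called (Lhx2 at -1.29, Sox4 and Sox11), and Sox4 in oligodendrocytes at -3.08, where 32.8% were called. Neutrophils could not be fitted with the block. The gated cells of a library summed to 544697 to 4120561 UMIs in Lrg1-/- and 2893907 to 9123856 in WT mice, which limits what low counts can show.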
